A study of Homo sapiens with 8 samples.

Results

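The nuclear-encoded subunits of the mitochondrial respiratory chain and ATP synthase were followed in the RNA of CAKI1 cells, an established line of human renal carcinoma cells. The genes were chosen by symbol alone, as the entries of the deposited table whose names begin with the usual stems of complex I (NDUFA, NDUFB, NDUFC, NDUFS or NDUFV and a number), complex II (SDHA to SDHD), complex III (UQCR), complex IV (COX4 to COX8 with a letter A, B or C) and complex V (ATP5). This gave 79 of 16782 genes, of which 37 belonged to complex I, 4 to complex II, 9 to complex III, 11 to complex IV and 18 to complex V. Of these, 78 passed the filter on low values, among 15593 genes tested, and COX8C, an isoform of the testis, was the exception. Control cells (4 samples) were serum starved for 24 h and received no lipocalin. The hLcn-2 cells (4 samples) had the same starvation and then holo Lcn-2, the iron-loaded form of lipocalin-2, at 5 µg/mL for 24 h. One cell line was used, and nothing in the labels says whether the replicate numbers 1 to 4, which both groups share, stand for separate cultures, so p-values measure the spread between these samples. In bulk RNA, fewer cells and less RNA per cell cannot be told apart.

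Complexes I to IV pass electrons from NADH and succinate to oxygen and most of them pump protons across the inner mitochondrial membrane, and complex V uses the proton gradient to make ATP. Complexes I, III, IV and V combine subunits encoded in the nucleus with a few encoded by mitochondrial DNA, whereas complex II is encoded in the nucleus alone. Iron is part of the machinery itself, as iron-sulfur clusters in complexes I to III and as haem in complexes II to IV, and renal carcinomas are known for reduced oxidative metabolism.

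The libraries were 3′ libraries with molecular identifiers, in which a transcript is read near its end, so that normalized counts, given in CPM (counts scaled to a common library size), were compared between genes without division by length. The depth ran from 1501563 reads in control 4 to 13953090 in control 1, a ratio of 9.29, and 1 read was worth between 0.0704 and 0.658 CPM. The renal and epithelial markers PAX8 and MET were present at 201 to 245 and 829 to 1049 CPM, the leukocyte and endothelial markers sought were not in the table, and the hepatocyte gene ALB stayed at or under 1.48 CPM.

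Respiratory chain genes were well expressed and varied little with hLcn-2. Their mean levels over the 8 samples had a median of 147 CPM, 50 of 78 lay above 100 CPM, and together the 79 genes made up between 1.44% and 1.80% of all values in a sample. The median log2 fold change of the 78 genes, hLcn-2 against control on the log2(normalized count + 1) scale, was -0.01, with 34 genes higher and 44 lower, beside a median of 0.00 and 50.2% higher over all genes tested. The middle 50% of the respiratory chain genes spanned 0.16 on the log2 scale, against 0.28 for all genes, which were not matched for level.

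In the limma fit without the replicate number, 0 of the 78 genes passed an adjusted p of 0.05, and so did 0% of all genes tested, with 1 of the 78 and 355 of all genes at an unadjusted p under 0.05. With the replicate number as a block, limma called 0 of the 78 genes, beside 0.282% of all genes. The edgeR quasi-likelihood test on recovered reads with that block called 1 of the 78, NDUFB3, beside 1.49% of all genes. DESeq2 with the block called the same gene, beside 181 genes in all, and gave no adjusted p for 6651 of the 15593. At an unadjusted p under 0.05 in the blocked limma fit stood 10 of the 78 genes (12.8%), close to the background of 12.2%. NDUFA5, NDUFB3, NDUFB6, NDUFC1 and NDUFS6 were higher among them, and ATP5G1, COX7B, SDHA, UQCRH and UQCRHL were lower. At a share this near the background, these names are not read as a pattern by complex.

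The data bounded most genes closely, in a comparison with all genes that was not matched for level. Of the 78 genes, 74 averaged at least 10 CPM, as did 9017 of the 16782 genes. The 95% interval of the log2 fold change lay within a 1.5-fold change in either direction for 61 of the 78 genes (78.2%), against 37.7% of all genes, and with the replicate block for 71 (91.0%), against 59.5%. The 7 genes outside this bound in the blocked fit were NDUFA13, NDUFA7, NDUFB3, NDUFS7, NDUFV2, UQCRH and UQCRHL. Within same-numbered pairs, 6 genes were higher in hLcn-2 in 4 of 4 pairs, beside 9.93% of all genes. They were NDUFB3, NDUFB6, NDUFC1, COX7A2, SDHD and NDUFA4, the last by its stem a gene of complex I and now counted as a subunit of complex IV. The 8 genes lower in 4 of 4 pairs, beside 10.9% of all genes, were SDHA, UQCR11, UQCRH, UQCRHL, COX7B, COX7C, ATP5E and ATP5G1. No respiratory chain gene had its 4 hLcn-2 values all above its 4 control values (background 0.891%), and 1, UQCRHL, had them all below (background 0.988%).

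**Figure D1:**
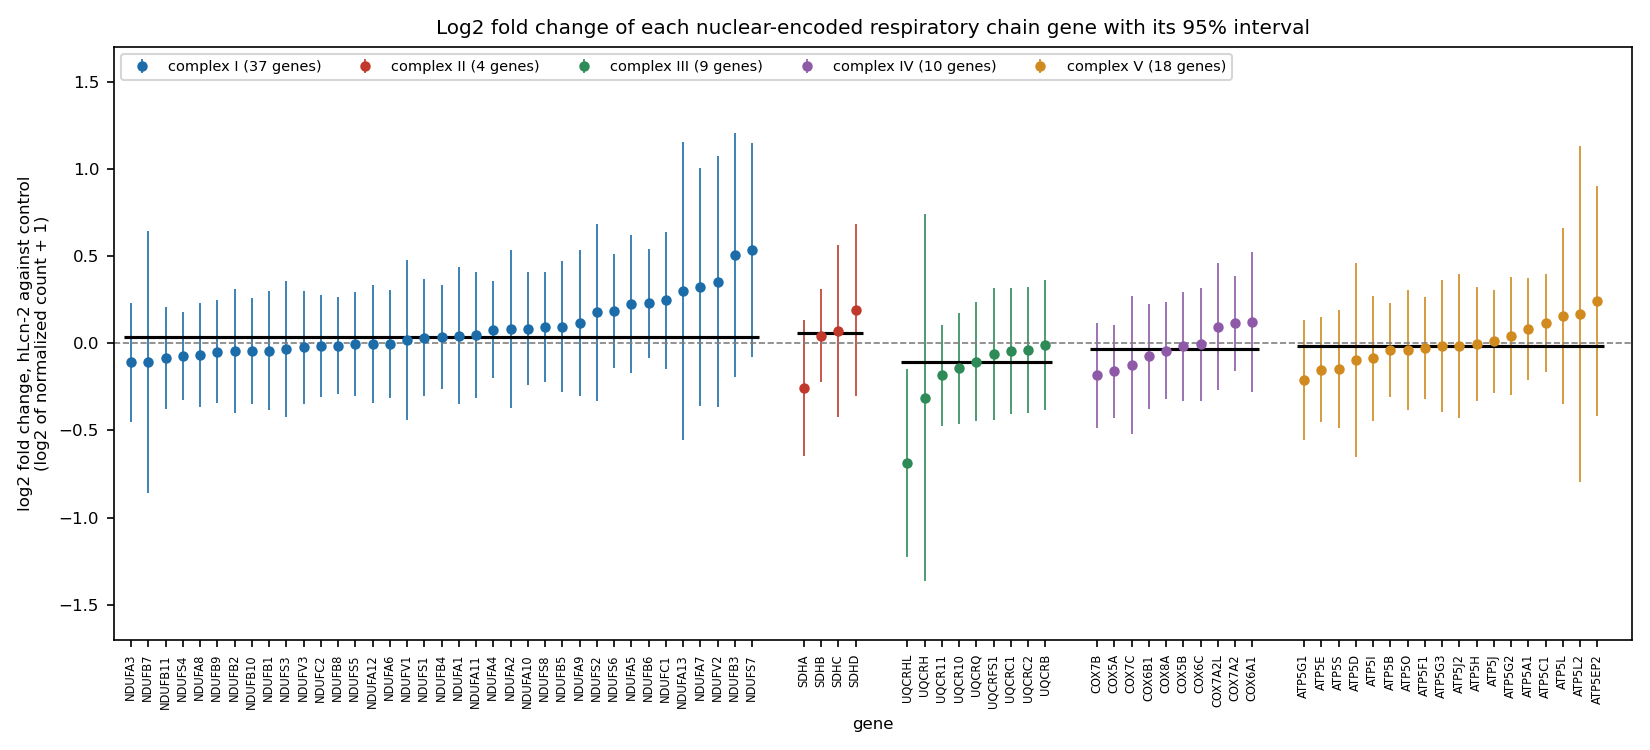
Log2 fold change of hLcn-2 against control on the log2(normalized count + 1) scale for the 78 genes tested, grouped by complex and sorted within it; points are the limma estimates without the replicate block, vertical lines their 95% intervals, and black horizontal lines the median of each complex. Only the interval of UQCRHL leaves out 0, and the medians of the 5 complexes lie between -0.11 and 0.06.

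For most genes, more of the variance lay between replicate numbers than between control and hLcn-2. The share of a gene's variance that lay between replicate numbers had a median of 75.6% over the 78 genes, whereas the share between control and hLcn-2 had a median of 4.21%, and the first was the larger in 75 of 78 genes. Over all genes tested the medians were 66.6% and 6.15%. The exceptions were UQCRHL, NDUFS7 and NDUFS8. A larger share for the replicate number is partly fixed in advance, because there are more numbers than groups.

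**Figure D2:**
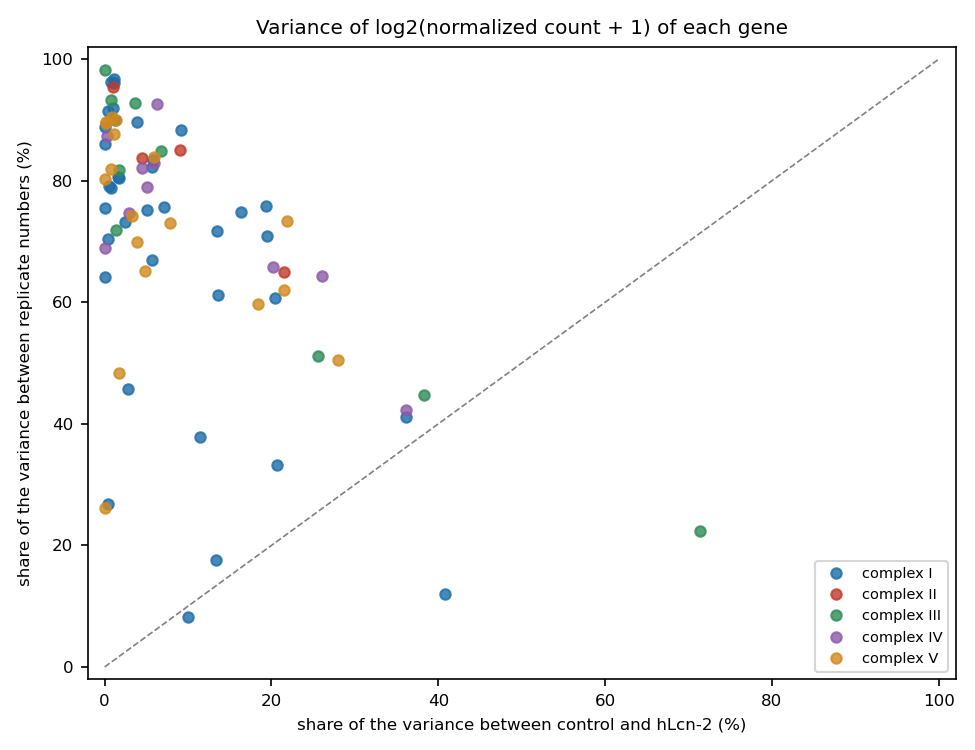
Share of the variance of log2(normalized count + 1) between control and hLcn-2 (x axis, %) and between replicate numbers (y axis, %), 1 point for each of the 78 genes, colored by complex, with a dashed line where the shares are equal. In 75 genes the point lies above the line, and the complex III point farthest to the right is UQCRHL. Points above the line are favoured in advance, because there are more numbers than groups.

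Summed over its genes, complex I gave 5360.4, 4681, 6123 and 5397 CPM in controls 1 to 4 and 5828, 4890.5, 6165 and 5664 CPM in the same-numbered hLcn-2 samples. Its sum was higher in hLcn-2 in all 4 pairs, by 8.72%, 4.48%, 0.678% and 4.96%, and the groups overlapped widely. The sum over all genes tested was also higher in all 4 pairs, by 2.79%, 3.65%, 0.865% and 1.61%, more than that of complex I in pair 3, and the cytosolic ribosomal proteins were higher by 5.73%, 4.66%, 4.11% and 5.97%. The sum of complex III was 1682, 1332, 1796 and 1707 CPM in controls and 1683, 1312, 1669 and 1526 CPM with hLcn-2. In pair 1 its sums differed by 0.00912%, and in pairs 2 to 4 the hLcn-2 sum was lower. Complex II summed to 482 ± 46.5 CPM in controls and 487 ± 92.2 CPM with hLcn-2 (SD, n = 4), complex IV to 3443 ± 363 and 3336 ± 386 CPM, and complex V to 5522 ± 841 and 5511 ± 641 CPM. In each of these 3 complexes the hLcn-2 sum was higher in pair 1 and lower in pair 4, and the difference between the means was smaller than the SD of either group. Sample number 2 had the lowest sum of complexes I, III, IV and V in both groups. Number 3 had the highest, except that hLcn-2 1 was highest in complex III.

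**Figure D3:**
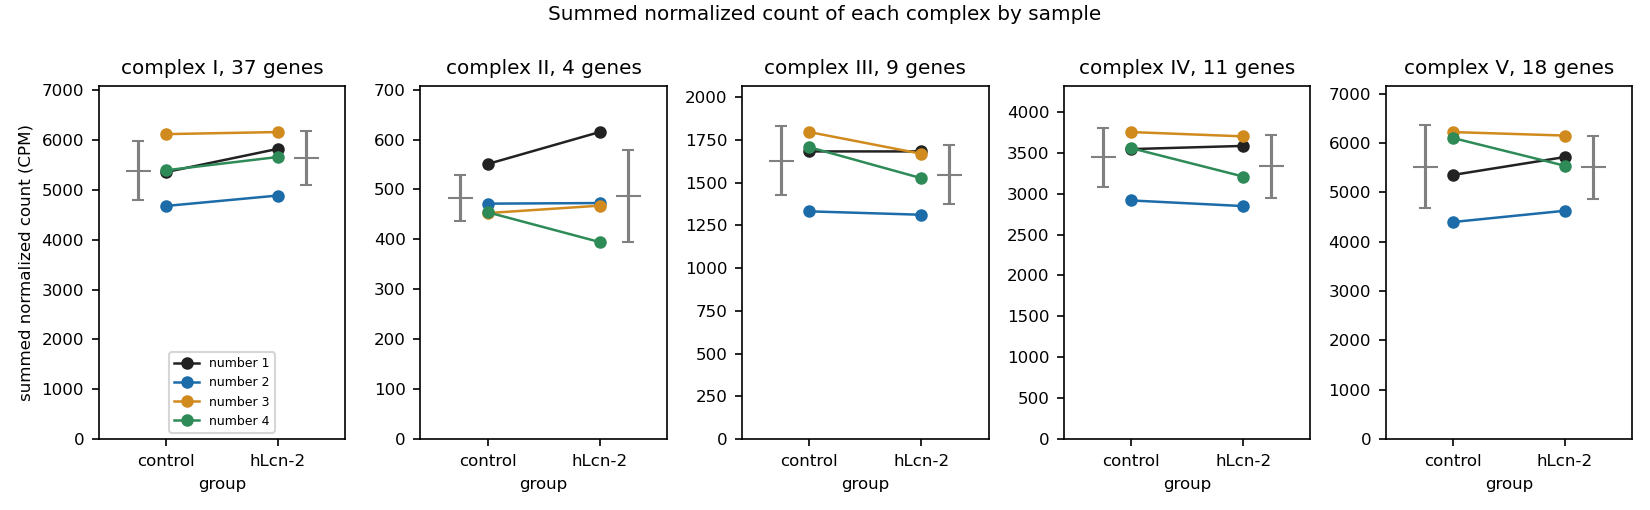
Summed normalized count of each complex (y axis, CPM, from 0) in control and hLcn-2 samples; lines join samples of the same replicate number, and grey marks beside them give the mean and SD of 4 samples. The lines of complex I go up slightly in all 4 pairs, as did the sum over all genes tested (by 0.865% to 3.65%), and in each panel the spread between numbers is wider than the step from control to hLcn-2.

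Complex I, the NADH dehydrogenase, held 21 genes with a higher and 16 with a lower estimate in hLcn-2, with a median log2 fold change of 0.04. Its 7 nuclear-encoded core subunits, which carry the flavin and the iron-sulfur clusters, had a median of 0.09 with 6 of 7 higher, and the 30 supernumerary subunits a median of 0.02 with 15 higher and 15 lower. The largest core estimates, NDUFS7 (0.53) and NDUFV2 (0.35), rested on 1 to 30 and 5 to 35 reads per sample. None of the core subunits passed a test. TMM scaling moved the split of the complex to 24 higher and 13 lower. It was 16 higher and 21 lower without control 2, where the median turned to -0.03, 18 and 19 without hLcn-2 3, and 29 and 8 without hLcn-2 2.

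NDUFB3, a supernumerary subunit of the membrane arm, was the gene with the smallest p in the blocked fits. Its normalized counts were 85.4, 94.1, 71.4 and 33.6 CPM in controls 1 to 4 and 137, 100.2, 104 and 56.8 CPM in hLcn-2 1 to 4. Sample number 4 was lowest in both groups, each hLcn-2 value was above its same-numbered control, and the groups overlapped. The mean was 71.1 ± 26.7 CPM in controls and 99.3 ± 32.7 CPM with hLcn-2 (SD, n = 4), with an exact permutation p of 0.314 without pairing. The log2 fold change was 0.51 (SE 0.32), and the differences within pairs 1 to 4 were 0.67, 0.09, 0.53 and 0.74 on the log2 scale. Without control 4 the log2 fold change was 0.19, and without hLcn-2 1 it was 0.33. With the replicate block the adjusted p of NDUFB3 was 0.0743 in limma, 0.0284 in edgeR and 0.0228 in DESeq2. The edgeR call was lost without pair 1, pair 3 or pair 4 (adjusted p = 0.217, 0.119 and 0.0626) and kept without pair 2 (adjusted p = 0.0165).

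NDUFB6, another accessory subunit of the membrane arm, measured 80.5, 89.8, 82.3 and 60.6 CPM in controls and 88.6, 96.1, 90.8 and 88.7 CPM with hLcn-2. Only control 2 reached into the range of the hLcn-2 samples, and all 4 pairs were higher, with a log2 fold change of 0.23 (SE 0.14) and an exact permutation p of 0.0857. NDUFA5, an accessory subunit of the matrix arm and the gene of complex I with the highest mean level, measured 346, 302, 539 and 372 CPM in controls and 464, 369.5, 527 and 433 CPM with hLcn-2. The groups overlapped, pair 3 alone was not higher, and the log2 fold change was 0.22 (SE 0.18, exact permutation p = 0.343). NDUFC1 and NDUFS6, both accessory, had log2 fold changes of 0.25 (SE 0.18) and 0.19 (SE 0.15), higher in 4 and 3 of 4 pairs.

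NDUFS7, a core subunit that binds the last iron-sulfur cluster before ubiquinone, was at the lower end of detection. Its values were 1.83, 2.25, 1.59 and 0.658 CPM in controls and 2.58, 1.69, 3.46 and 3.04 CPM with hLcn-2, from 1 to 30 reads. The single lowest value was that of control 4, which rested on 1 read, and the groups overlapped. The log2 fold change was 0.53 (SE 0.28, exact permutation p = 0.0857), and it was 0.23 with a pseudocount of 5 and 0.80 with one of 0.1.

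The transcript ends of the weakly measured genes of complex I lie in exons of other genes. In GENCODE 44 (GRCh38), 90.2% of the last 500 bases of NDUFV2 (chr18:9102630-9134345, plus strand), 74.4% of those of NDUFA7 (chr19:8308768-8321375, minus strand) and 83.6% of those of NDUFA13 (chr19:19515736-19529054, plus strand) overlap exons of another gene on the same strand. For NDUFS7 (chr19:1383527-1395589, plus strand), 56.6% lie opposite exons of another gene. Their mean levels were 3.62, 3.84, 16.7 and 2.14 CPM, the lowest 4 of the complex, whereas the 26 genes of complex I without such an overlap ran from 31.4 to 419 CPM. NDUFB8 and NDUFA11 also overlap a same-strand gene over at least 50% of that stretch and reached 119 and 84.9 CPM, so overlap and a low level did not go together in every gene. In complex V, the last 500 bases of ATP5E and ATP5S lay wholly opposite exons of other genes, and their mean levels were 737 and 27.4 CPM. The part of the overlap in these levels was not tested, and the strand setting of the counting is not given in the sources used here.

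**Figure D4:**
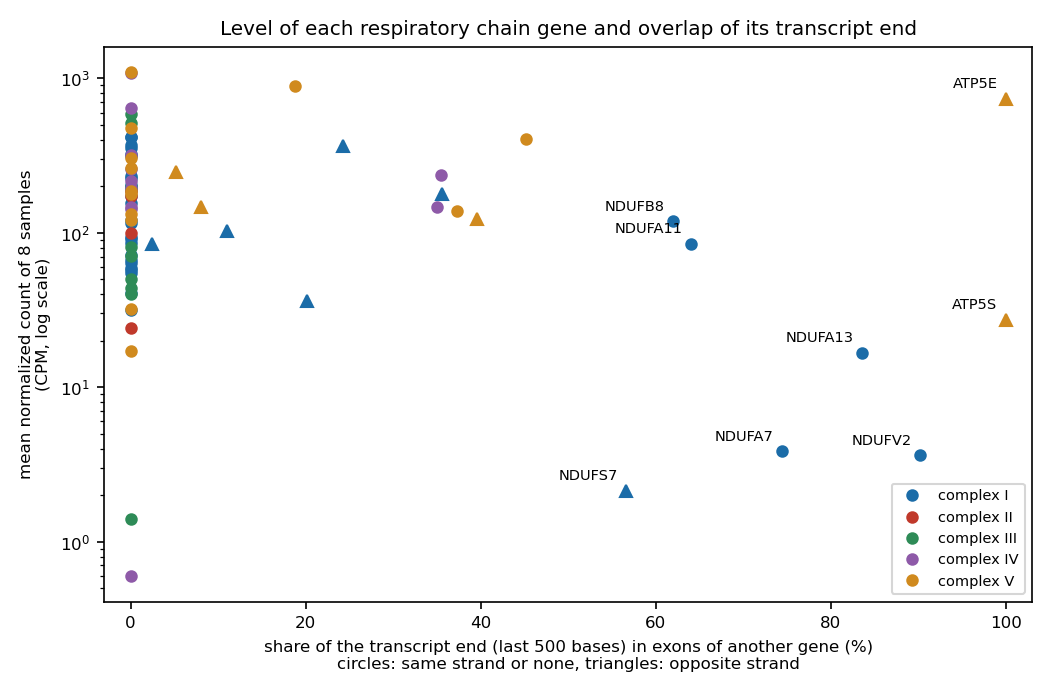
Mean normalized count over 8 samples (y axis, CPM, log scale) of the 79 genes against the share of the last 500 transcript bases that lies in exons of another gene (x axis, %), colored by complex, circles for the same strand or no overlap and triangles for the opposite strand. NDUFV2, NDUFA7, NDUFA13 and NDUFS7 lie at the lower right, with 2.14 to 16.7 CPM, and NDUFB8, NDUFA11 and ATP5E lie above them.

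Complex II, succinate dehydrogenase, also works in the citric acid cycle. SDHA, its flavoprotein subunit, measured 120.0, 88.9, 95.4 and 132 CPM in controls and 119, 71.6, 86.4 and 89.2 CPM with hLcn-2. It was the only subunit of the complex lower in all 4 pairs, by 0.02, 0.31, 0.14 and 0.56 on the log2 scale. The groups overlapped, since hLcn-2 1 was about as high as control 1, and the log2 fold change was -0.26 (SE 0.18, exact permutation p = 0.200).

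SDHB, the iron-sulfur subunit, measured 170.1, 184, 160.1 and 168 CPM in controls and 181, 199.6, 165 and 159.6 CPM with hLcn-2. The groups overlapped, and its log2 fold change of 0.04 had a 95% interval from -0.22 to 0.31 (exact permutation p = 0.657). The membrane anchor SDHC measured 235, 172, 178 and 137 CPM in controls and 281, 172, 194 and 128 CPM with hLcn-2. The samples numbered 1 were highest and those numbered 4 lowest in both groups, and the log2 fold change was 0.07 (SE 0.23, exact permutation p = 0.771). The other anchor, SDHD, measured 25.4, 26.3, 19.0 and 17.8 CPM in controls and 34.5, 29.3, 21.7 and 17.8 CPM with hLcn-2. The groups overlapped, the hLcn-2 value was higher in each pair, in pair 4 by only 0.0039 on the log2 scale, and the log2 fold change was 0.19 (SE 0.23, exact permutation p = 0.457). The level of SDHD, at a mean of 24.0 CPM, was the lowest of the 4 subunits, which form the enzyme in equal numbers.

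In complex III, the cytochrome bc1 complex, all genes picked by the stem UQCR (9 of 9) had a negative log2 fold change. Their median was -0.11, and no other complex had a single direction. Subunits of complex III outside the stem had positive estimates, the nuclear-encoded CYC1 of 0.05 and the mitochondrially encoded CYTB of 0.24. The 5 smallest of the 9 differences were under 0.11 in size, and the direction of UQCRB, at -0.01, turned with TMM scaling and in both edgeR fits. Leaving out hLcn-2 4 left 5 of 9 genes lower, and leaving out hLcn-2 2 left 6 of 9. UQCRQ, a small accessory subunit with the highest level of the complex, measured 654, 473, 590.1 and 742 CPM in controls and 629.6, 487, 540.1 and 609.7 CPM with hLcn-2. The groups overlapped, and its log2 fold change was -0.11 (SE 0.16, exact permutation p = 0.543). UQCR11, the smallest subunit, measured 88.3, 75.2, 90.2 and 88.9 CPM in controls and 70.3, 69.9, 74.1 and 87.2 CPM with hLcn-2. Control 2 stood below the other 3 controls and hLcn-2 4 above the other 3 treated samples, all 4 pairs were lower, and the log2 fold change was -0.18 (SE 0.13, exact permutation p = 0.0571).

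UQCRH, the hinge protein between cytochrome c1 and cytochrome c, measured 75.4, 62.9, 54.8 and 23.0 CPM in controls and 66.2, 61.6, 47.9 and 12.4 CPM with hLcn-2. It was lower in all 4 pairs, sample number 4 was lowest in both groups, and the differences within pairs were -0.18, -0.03, -0.19 and -0.84 on the log2 scale. The log2 fold change was -0.31 (SE 0.48, exact permutation p = 0.571). UQCRHL, its intronless copy, measured 1.62, 2.03, 3.00 and 1.32 CPM in controls and 0.802, 0.845, 0.987 and 0.652 CPM with hLcn-2. All 4 hLcn-2 values were below all 4 controls. The log2 fold change was -0.69 (SE 0.25), with an exact permutation p of 0.0286, the smallest that 4 against 4 samples allow. The adjusted p was 0.9999 in limma and 0.268 with the replicate block. These values rested on 2 to 27 reads per sample, and the log2 fold change was -1.13 with a pseudocount of 0.1 and -0.26 with a pseudocount of 5.

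The sequence of both genes is shown because reads of one could be counted for the other. UQCRH (chr1:46303698-46316776, plus strand, 4 exons) and UQCRHL (chr1:15807169-15809348, minus strand, 1 exon) were identical at 97.87% of 516 aligned transcript positions in GENCODE 44 (GRCh38). The coding sequences of 276 bases differed at 4 positions, and the 192 bases after the stop codon, where reads of a 3′ library fall, at 5. The last 120 coding bases, from coding position 157 to the stop codon, hold all 4 coding differences, which are in capitals.
UQCRH: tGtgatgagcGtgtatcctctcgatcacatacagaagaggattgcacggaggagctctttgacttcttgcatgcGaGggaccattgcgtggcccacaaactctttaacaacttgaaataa
UQCRHL: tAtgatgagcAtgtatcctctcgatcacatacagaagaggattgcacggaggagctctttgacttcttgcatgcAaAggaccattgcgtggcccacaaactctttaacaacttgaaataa
At such identity the 1.41 CPM mean of UQCRHL beside 50.5 CPM of UQCRH is uncertain, since a read without a differing base cannot be assigned to either gene.

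**Figure D5:**
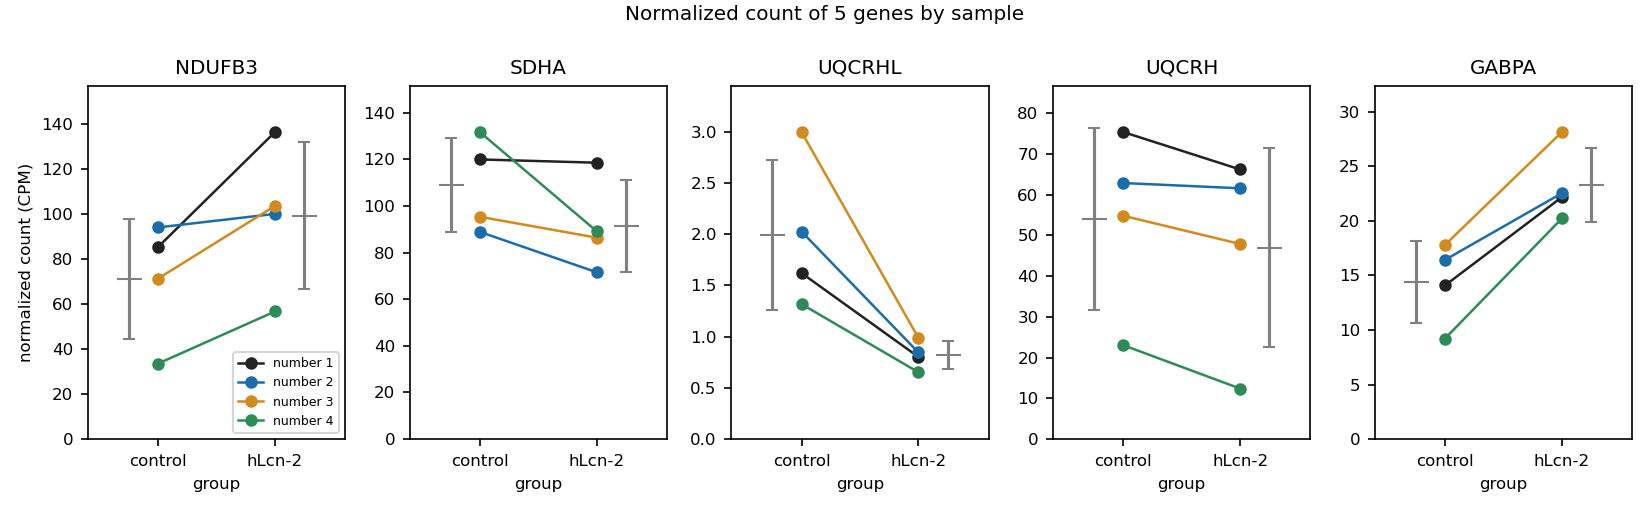
Normalized count (y axis, CPM, each from 0) of NDUFB3, SDHA, UQCRHL, UQCRH and the regulator GABPA in control and hLcn-2 samples; lines join samples of the same replicate number, and grey marks give the mean and SD of 4 samples. In UQCRHL (controls at or above 1.32, hLcn-2 at or below 0.987 CPM) and GABPA the groups do not overlap, whereas in the other 3 genes they do.

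Complex IV, cytochrome c oxidase, had a median log2 fold change of -0.03 over 10 genes tested, with 3 higher and 7 lower, and the 95% intervals of all 10 lay within 1.5-fold. COX7C, a structural subunit and the gene with the highest level of the complex, measured 1170.5, 853, 1279.5 and 1235 CPM in controls and 1077, 769, 1243 and 1081 CPM with hLcn-2. Each pair was lower, sample number 2 was lowest in both groups, and the log2 fold change was -0.13 (SE 0.18, exact permutation p = 0.514). COX7B, a further structural subunit, measured 248, 198, 238 and 228 CPM in controls and 236, 177, 217 and 177 CPM with hLcn-2. Each pair was again lower with overlapping groups, and the log2 fold change was -0.18 (SE 0.14, exact permutation p = 0.200). COX5A, a matrix-side subunit, measured 212, 192, 197 and 224 CPM in controls and 212, 179.6, 168 and 179 CPM with hLcn-2. Pair 1 was level and the other 3 were lower, with a log2 fold change of -0.16 (SE 0.12, exact permutation p = 0.171). Higher estimates were found for COX7A2 (0.11), COX6A1 (0.12) and COX7A2L (0.10), the last a factor of supercomplex formation rather than a fixed subunit, and COX7A2 was higher in 4 of 4 pairs. COX8C ranged from 0.0891 to 1.09 CPM. The other isoforms limited to muscle, lung or testis that were sought (COX6A2, COX6B2, COX7A1, COX7B2, COX4I2) and NDUFA4L2 were not in the table.

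Complex V, the ATP synthase, had a median log2 fold change of -0.02, with 7 genes higher and 11 lower. Its c subunit, which forms the rotating ring of the membrane part, is encoded by 3 genes with the same mature protein, ATP5G1, ATP5G2 and ATP5G3 (now ATP5MC1 to ATP5MC3). ATP5G1 measured 209, 155, 237 and 201 CPM in controls and 172, 139, 188 and 190.3 CPM with hLcn-2. It was lower in 4 of 4 pairs with overlapping groups, and its log2 fold change was -0.21 (SE 0.16, exact permutation p = 0.257). ATP5G2 measured 300.1, 247, 339.8 and 303 CPM in controls and 324, 259, 381 and 267 CPM with hLcn-2. The groups overlapped, and the log2 fold change was 0.04 (SE 0.15, exact permutation p = 0.829). ATP5G3, at 928, 685, 1020.1 and 935 CPM in controls and 1006, 708, 1045 and 778 CPM with hLcn-2, was the most abundant of the 3 in every sample. Both ATP5G2 and ATP5G3 were higher in pairs 1 to 3 and lower in pair 4, and the log2 fold change of ATP5G3 was -0.02 (SE 0.17, exact permutation p = 0.971).

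ATP5L, which encodes subunit g of the membrane part, had the highest mean of all respiratory chain genes and a wide spread. It measured 854, 667, 1295 and 1397 CPM in controls and 1325, 885, 1257 and 1079 CPM with hLcn-2. Pairs 1 and 2 were higher and pairs 3 and 4 lower, and the log2 fold change was 0.16 (SE 0.23, exact permutation p = 0.629). ATP5E, the epsilon subunit of the central stalk, measured 778, 649.6, 764 and 918 CPM in controls and 690.0, 620.4, 759 and 715 CPM with hLcn-2. Each pair was lower, by 0.01 to 0.36 on the log2 scale, the groups overlapped, and the log2 fold change was -0.15 (SE 0.14, exact permutation p = 0.229).

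Both genes have intronless copies that the symbols placed among the 18 genes, and ATP5S (now DMAC2L) is a related factor rather than a subunit. ATP5EP2, annotated as a processed pseudogene (chr13:27945260-27945415, plus strand), was identical to the coding sequence of ATP5E (chr20:59025475-59032345, minus strand) at 96.15% of 156 positions. It measured 79.2, 86.0, 163 and 109 CPM in controls and 67.3, 116, 181 and 168 CPM with hLcn-2. Sample number 3 was highest in both groups, which overlapped, and the log2 fold change was 0.24 (SE 0.30). The estimate of the copy was thus positive and that of ATP5E negative, neither passed a test, and the difference between them was not tested. The last 120 coding bases, which hold all 6 differences in capitals, are given to show how alike the genes are within the copy. The 3370 bases of ATP5E after its stop codon have no counterpart in the copy, which ends with its coding sequence.
ATP5E: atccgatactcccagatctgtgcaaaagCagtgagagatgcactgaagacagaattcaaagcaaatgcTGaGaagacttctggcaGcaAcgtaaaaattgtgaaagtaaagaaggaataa
ATP5EP2: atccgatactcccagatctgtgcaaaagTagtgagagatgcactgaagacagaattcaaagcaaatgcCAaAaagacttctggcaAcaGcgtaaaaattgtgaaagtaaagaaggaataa
ATP5L2 (now ATP5MGL) was identical to ATP5L at 92.81% of 473 aligned transcript positions, and measured 15.9 to 51.4 CPM in controls and 12.6 to 51.8 CPM with hLcn-2. Reads that fall in the stretches shared with these copies may be split between the genes, so their values are uncertain.

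The mitochondrially encoded partners of these subunits had a higher estimate in 12 of 13 genes, with a median log2 fold change of 0.14 against -0.01 for the nuclear-encoded genes. None of the 13 was called in limma with or without the block or in edgeR or DESeq2 with it. In the blocked limma fit 5 of the 13 were at an unadjusted p under 0.05, all higher, beside 12.2% of all genes tested in either direction. Without the block 0 of the 13 were, and the smallest exact permutation p among them was 0.429 (COX2). The 13 genes share the mitochondrial genome, so these counts are not of separate observations. The summed values of the 13 were higher with hLcn-2 in all 4 pairs, by 6.79%, 11.3%, 6.57% and 8.11%, in each pair more than the sum over all genes tested. The spread between replicate numbers was larger, with sums from 2.98% to 6.20% of all values in a sample. The ratio of the nuclear-encoded to the mitochondrially encoded sum was 0.447, 0.489, 0.306 and 0.444 in controls and 0.442, 0.450, 0.284 and 0.390 with hLcn-2. It was lower in each hLcn-2 sample than in its same-numbered control, and the number 3 samples were lowest in both groups.

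The 52 assembly factors, which build the complexes without being part of them, had a median log2 fold change of -0.02, with 21 higher and 31 lower, and 0 were called in the same 4 fits. Beside 12.2% of all genes tested, a larger share, 2 assembly factors were higher and 3 lower at an unadjusted p under 0.05 in the blocked limma fit. They were NDUFAF4 of complex I (log2 fold change 0.25) and COX20 of complex IV (0.59), and on the lower side TMEM186 of complex I (-0.69), PET100 (-0.55) and SCO2 (-0.40) of complex IV. TMEM186 and COX20 had mean levels of at most 2.64 CPM in either group, near the filter. Of 9 subunits and carriers that the name patterns miss, 7 were in the table, with a median log2 fold change of 0.00. Among them were COX4I1 (-0.10), CYC1 of complex III (0.05) and CYCS, the cytochrome c gene (0.01). Mitochondrial ribosomal proteins, which serve the translation of the mitochondrial subunits, had a median of -0.01 over 75 genes, and cytosolic ribosomal proteins one of 0.05 over 81.

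Of 10 regulators of respiratory chain transcription in the table, GABPA alone was called, by edgeR (adjusted p = 0.0193) and DESeq2 (adjusted p = 0.0296) with the replicate block. Over all genes tested, the edgeR fit called 1.49%. The DESeq2 fit called 181 genes and gave no adjusted p for 6651 of the 15593 tested. GABPA, the DNA-binding subunit of an ETS factor known to act on many respiratory chain promoters, measured 14.1, 16.4, 17.8 and 9.22 CPM in controls and 22.2, 22.5, 28.1 and 20.2 CPM with hLcn-2. All 4 hLcn-2 values were above all controls, as in 0.891% of all genes tested. The log2 fold change was 0.68 (SE 0.22), with an exact permutation p of 0.0286, which any gene without overlap of the groups reaches. The adjusted p of GABPA was 0.9999 in limma and 0.0655 with the block, and the edgeR call was lost without pair 1, 2 or 3 (adjusted p = 0.104, 0.0655 and 0.0659) and kept without pair 4 (adjusted p = 0.0393). GABPA lies opposite ATP5J on chromosome 21, where 5.2% of the last 500 bases of ATP5J overlap its exons. The ATP5J transcript has 526 bases, so that stretch is nearly all of it, and the place of the overlap within it was not examined. ATP5J had a log2 fold change of 0.01. The coactivator PPARGC1A (-0.27), the factor NRF1 (-0.07), YY1 (-0.06) and the mitochondrial factor TFAM (0.11) were not called.

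Promoters are shown because some of these regulators, among them the factors GABP, NRF1 and YY1, bind there. RefSeq (GRCh38.p14) gave the region from 250 bases before to 50 after the start for 62 of the 79 genes, and 3 words were searched on both strands. The GABP word CCGGAAGT was present in 9 of the 62 (14.5%), against 4.44% of all promoters and 8.44% of those of genes tested. The NRF1 word GCATGCGC was present in 13 (21.0%), against 3.27% and 5.40%, and the YY1 word AAGATGGC in 11 (17.7%), against 3.03% and 5.28%. The 100 bases before the start of 4 genes carry these words in capitals, in SDHD and UQCRH the GABP word in reverse complement, in ATP5C1 the NRF1 word on both strands, overlapping, and in ATP5J the YY1 word.
SDHD, chr11:112086773-112086872, plus strand: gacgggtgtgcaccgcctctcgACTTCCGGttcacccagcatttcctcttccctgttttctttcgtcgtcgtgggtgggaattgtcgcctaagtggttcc
UQCRH, chr1:46303598-46303697, plus strand: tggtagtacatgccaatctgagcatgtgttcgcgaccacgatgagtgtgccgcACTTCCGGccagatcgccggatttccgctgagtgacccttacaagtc
ATP5C1, chr10:7788077-7788176, plus strand: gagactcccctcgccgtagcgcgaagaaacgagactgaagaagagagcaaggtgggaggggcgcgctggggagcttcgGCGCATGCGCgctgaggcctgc
ATP5J, chr21:25735055-25735154, minus strand: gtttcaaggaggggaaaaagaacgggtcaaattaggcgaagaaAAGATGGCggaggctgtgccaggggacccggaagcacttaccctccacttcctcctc
Genes with and without the GABP word had median log2 fold changes of -0.02 (9 genes) and 0.00 (52 genes), those with and without the NRF1 word 0.04 (13) and -0.03 (48), and those with and without the YY1 word 0.00 (11) and -0.01 (50). The differences between these medians were not tested. Of the 4 genes printed, SDHD (0.19), ATP5C1 (0.12) and ATP5J (0.01) had positive and UQCRH (-0.31) a negative log2 fold change. Beyond their promoters, the genes are short, with a median transcript length of 799 bases, against 2935 for the genes tested, and a GC content of the last 500 bases of 44.6% against 41.8%. The correction for both properties with the replicate block gave 0 called genes, as did the block alone.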

How the data were processed

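RNA of 4 control and 4 hLcn-2 samples of CAKI1 cells was sequenced single-end with a QuantSeq 3′ FWD kit. The authors attached molecular identifiers to read names, aligned reads to GRCh38 with STAR, collapsed duplicates and counted genes with HTSeq. The deposited values are normalized counts, a scaled signal in CPM of a library size adjusted by the authors. All 134256 values came out as whole reads within 0.1 of a read, and one cell with a decimal comma (TXNIP in control 1) was read as a decimal point.

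The respiratory chain genes, the comparison lists and the tests were chosen with earlier results of these data known. Limma 3.58.1 in R 4.3.3, with an intensity trend and two-sided tests, took log2(normalized count + 1) of the 15593 genes that reached 1 CPM in 2 or more samples, and Benjamini-Hochberg adjustment ran over all of them, with 0.05 as the threshold. Limma on normalized values had been planned and was kept as the main test although reads could be recovered. On those reads edgeR 4.0.16 (quasi-likelihood) and DESeq2 1.42.0 were run as alternatives. Single genes were tested by two-sided exact permutation over the 70 regroupings of 4 against 4, whose smallest p is 0.0286. Values in all 8 samples are given for genes called in limma or in the blocked edgeR fit, genes whose groups do not overlap, the 2 genes of smallest p and the most abundant gene of each complex, all of complex II and the c subunit genes. UQCRH, ATP5EP2 and GABPA were added after their values were seen.

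The replicate numbers in the labels pair the samples. The deviations of same-numbered samples from their group means correlated across genes at 0.477, 0.590, 0.610 and 0.312 (0.784, 0.507, 0.414 and 0.549 over the respiratory chain genes). Among the hLcn-2 samples, each control correlated best with that of its own number. Transcript ends and copies were taken from GENCODE 44, promoters from RefSeq. Intervals of the fold changes cover the spread between samples. The scripts were tested on simulated data.

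Other pseudocounts, filters, scalings, fits and left-out samples were tried. Alternatives of the blocked edgeR fit without each pair were added after seeing the data.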

Additional observations from a re-analysis of the deposited data

Results flagged for a closer look

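In UQCR11, the 75.2 CPM of control 2 lay far from the other 3 controls, which ran from 88.3 to 90.2 CPM. Its gap to the nearest of them was 0.873 of the range of the group. This was 1 of 50 groups of 4 samples examined, the values of the 19 named genes and of the summed complexes, in which chance gives 2.5 such samples. Control 2 held 12634366 reads, against 1501563 in the smallest library.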

How the results depend on the processing

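The number of respiratory chain genes called was 0 in the limma fit and 0 in 27 of 30 alternatives. It was 1 (NDUFB3) in edgeR and in DESeq2 with the replicate block, and 1 in the blocked edgeR fit without pair 2; over all fits that left out a sample or a pair it ranged from 0 to 1. With the replicate block in limma it was 0. In edgeR and DESeq2 it was 0 without the block, and of the genes named the block changed the call of NDUFB3 and the regulator GABPA. Over all genes, limma called 0 without the block and 44 with it. Blocked edgeR and DESeq2 called 233 and 181 genes, and blocked edgeR without pair 2 called 56. Every fit without the block, and blocked limma without pair 3, called 0 genes in all. A count of 0 in those fits is not particular to respiratory chain genes. The median log2 fold changes of the respiratory chain genes and of each complex moved by less than the SD between replicates in all 180 alternatives. That was largely fixed in advance, because leaving out 1 sample moves a group mean by only part of this SD. Adding the block in limma leaves the estimates unchanged. Several medians still turned direction. With a sample or pair left out, the median of all respiratory chain genes ran from -0.06 to 0.06, that of complex I from -0.03 to 0.11, of complex II from -0.05 to 0.17, of complex IV from -0.10 to 0.03 and of complex V from -0.07 to 0.06, whereas that of complex III stayed negative (-0.18 to -0.03). The estimate of NDUFB3 ran from 0.19 to 0.75. Of the named genes, 6 changed direction in at least 1 fit that left out a sample or a pair: SDHC from -0.13 to 0.25, COX7C from -0.26 to 0.013, ATP5L from -0.042 to 0.35, SDHB from -0.017 to 0.10, ATP5G2 from -0.067 to 0.13 and ATP5G3 from -0.14 to 0.084. The cause was not tested.

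Depth limits the rarest genes: UQCRHL and NDUFS7 rested on at most 30 reads in a sample, and control 4, at 1501563 reads, gave 0.658 CPM per read. The estimates of these genes changed most with the pseudocount. For 17 of 78 genes the unblocked 95% interval reached beyond a 1.5-fold change, so a change of that size was not bounded there.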
